A study of Homo sapiens with 9 samples.

Results

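The 10 genes of the HAND2 dimerisation network were followed across an RNA interference experiment in LAN5 cells: HAND2, its antisense gene HAND2-AS1, its relative HAND1, the E-protein genes TCF3, TCF4 and TCF12, and the inhibitor genes ID1, ID2, ID3 and ID4. They were taken by gene symbol from a table of 25084 genes, and all 10 of 10 were found. LAN5 is an established human neuroblastoma line with an amplified MYCN gene. Cells were electroporated with siRNA that served as control (siCTR), targeted MYCN (labelled siMYCN_2) or targeted HAND2 (labelled siHAND2_3), kept in growth medium for 72 h and lysed for total RNA, giving 3 libraries per group. Each target was hit by 1 siRNA label in 1 cell line. The labels do not say whether the libraries came from separate cultures, so p-values measure only the spread between these libraries.

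HAND2 is a basic helix-loop-helix (bHLH) transcription factor needed for sympathetic neuron development and for noradrenergic gene expression. Factors of this class bind DNA as dimers, and their usual partners are the broadly expressed E-proteins encoded by TCF3 (E2A), TCF4 (E2-2) and TCF12 (HEB). Such dimers recognise the E-box, CANNTG. ID proteins have the helix-loop-helix but lack the basic DNA-binding region, so they hold E-proteins in dimers that cannot bind DNA. ID genes are classic targets of BMP signalling through SMAD proteins.

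Promoter stretches of 3 genes are printed, all from RefSeq on GRCh38.p14 and read 5′ to 3′. The first is shown because HAND2 and HAND2-AS1, which start there on opposite strands, moved in opposite directions when HAND2 was targeted. RefSeq places the HAND2 start at 173530229 of chromosome 4 and 1 start of HAND2-AS1 at 173530458, which leaves 228 bases between them. The stretch covers those 228 bases on the HAND2 strand, chr4:173530230-173530457 (minus strand). Capitals mark 5-base matches to CCAAT on either strand (CCAAT or ATTGG), at 147 and 55 bases before the HAND2 start.
HAND2: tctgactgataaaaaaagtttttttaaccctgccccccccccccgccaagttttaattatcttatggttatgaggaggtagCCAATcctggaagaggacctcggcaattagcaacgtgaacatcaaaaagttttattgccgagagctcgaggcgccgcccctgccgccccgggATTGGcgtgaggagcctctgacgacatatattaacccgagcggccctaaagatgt
CCAAT or ATTGG was present in 34.6% of the 35116 RefSeq promoter windows (250 bases before to 50 after a start). No CANNTG lay between these starts of HAND2 and HAND2-AS1. Just past the printed stretch, inside the transcribed side of HAND2-AS1, 1 began at -242 from the HAND2 start. The window of this HAND2-AS1 start held 2, at 8 and 19 from it, and that at 8 was the same site read from the other strand.

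The other stretches are shown because ID2 and ID4 are the ID genes with an E-box in that window, and both carry the same letters, CAGCTG. Capitals mark the E-box. ID4 lies at chr6:19837290-19837369 (plus strand), the 80 bases before its start, with the E-box beginning 21 bases before it. ID2 lies at chr2:8681816-8681895 (plus strand), 240 to 161 bases before its start, with the E-box beginning 205 bases before it.
ID4: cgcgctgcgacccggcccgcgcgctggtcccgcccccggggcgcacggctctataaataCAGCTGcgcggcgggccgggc
ID2: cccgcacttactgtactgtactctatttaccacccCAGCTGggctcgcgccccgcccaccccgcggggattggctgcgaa
CAGCTG occurred in 17.9% of the RefSeq windows, and any CANNTG, which reads the same pattern on both strands, in 68.7%. The windows of ID1, ID3, HAND1 and TCF3 held no CANNTG. Over all 10 genes, 14 of 24 annotated start sites had one, among them 7 of 10 for TCF4 and 2 of 5 for TCF12. A match is a description of letters, not evidence of binding.

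The values were CPM, reads scaled to 1 total in every library, and the smallest step between low values put the reads assigned to genes at 21.1 M to 32.7 M per library. At 1 CPM, 21.1 to 32.7 reads stood behind a value, and counting error alone gave a coefficient of variation of 17.5% to 21.8%. MYCN, the target of the other siRNA, was at 70.0% of its siCTR mean under siMYCN and at 49.6% under siHAND2, so the siHAND2 libraries were also low in MYCN. All 10 sympathetic and neuroblastoma markers (such as DBH, CHGA and ELAVL4) were above 1 CPM in at least 1 library and summed to 2235 to 2919 CPM over the 9 libraries. The immune markers found (4 of 8) and the Schwann marker SOX10 stayed below 1 CPM in every library. In such bulk samples, fewer cells of a type and less RNA per cell cannot be told apart.

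Targeting HAND2 lowered both HAND genes. HAND2 (chromosome 4, 173524969 to 173530229, minus strand) stood at 516, 499 and 489 CPM under siCTR, at 588, 557 and 568 CPM under siMYCN and at 268, 267 and 280.4 CPM under siHAND2 (replicates 1, 2 and 3, as for each gene that follows). The siHAND2 libraries lay far below the others and the siMYCN libraries a little above siCTR, with no overlap between any groups. The siHAND2 mean was 54.2% of that of siCTR, so much of the transcript was still there at 72 h. On the log2(CPM + 1) scale HAND2 changed by -0.88 (limma, SE 0.04, adjusted p = 1.25e-10, by Benjamini-Hochberg over all genes), at rank 64 from the lowest of 14495 genes tested. In siMYCN, HAND2 rose by 0.19 (limma, SE 0.04, adjusted p = 0.00183), to 114% of siCTR. The rise held under each alternative and without each library, between 0.13 and 0.25.

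HAND1 (chromosome 5, 154474972 to 154478227, minus strand), the paralogue best known from heart and trophoblast, was present at a low level. It stood at 17.6, 17.9 and 16.5 CPM under siCTR, at 19.4, 17.9 and 18.9 CPM under siMYCN and at 12.1, 10.1 and 11.0 CPM under siHAND2. The siHAND2 libraries were the 3 lowest. Under siHAND2 HAND1 changed by -0.60 (limma, SE 0.07, adjusted p = 8.96e-06), with a mean at 63.9% of siCTR. In siMYCN the difference was 0.11 (limma, adjusted p = 0.275), although the libraries lay just above those of siCTR without overlap.

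HAND2-AS1 (chromosome 4, 173527270 to 173659696, plus strand) is a long noncoding RNA gene that starts beside HAND2 and runs the other way. It stood at 284, 286 and 311 CPM under siCTR, at 288, 312 and 316 CPM under siMYCN and at 408, 441 and 471 CPM under siHAND2. Every siHAND2 library exceeded every other library, while siCTR and siMYCN overlapped. The rise in siHAND2 was 0.58 (limma, SE 0.05, adjusted p = 5.56e-07), and the difference in siMYCN was 0.06 (limma, adjusted p = 0.448). The ratio of HAND2-AS1 to HAND2 CPM averaged 0.586 ± 0.0442 (siCTR), 0.535 ± 0.0397 (siMYCN) and 1.62 ± 0.0832 (siHAND2) (SD, n = 3 each). HAND2, the denominator, was the siRNA target in siHAND2, so its fall raises the ratio by itself. HAND2-AS1 alone stood at 1.5 times its siCTR mean in siHAND2. The gene spans in the table overlap by 2960 bases on opposite strands, and use of strand in counting is not given in the sources used here, so reads in the overlap may belong to either gene. The genes that overlap TCF4, TCF12, ID2 and ID4 on the opposite strand were all below 1 CPM in every library.

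**Figure D1:**
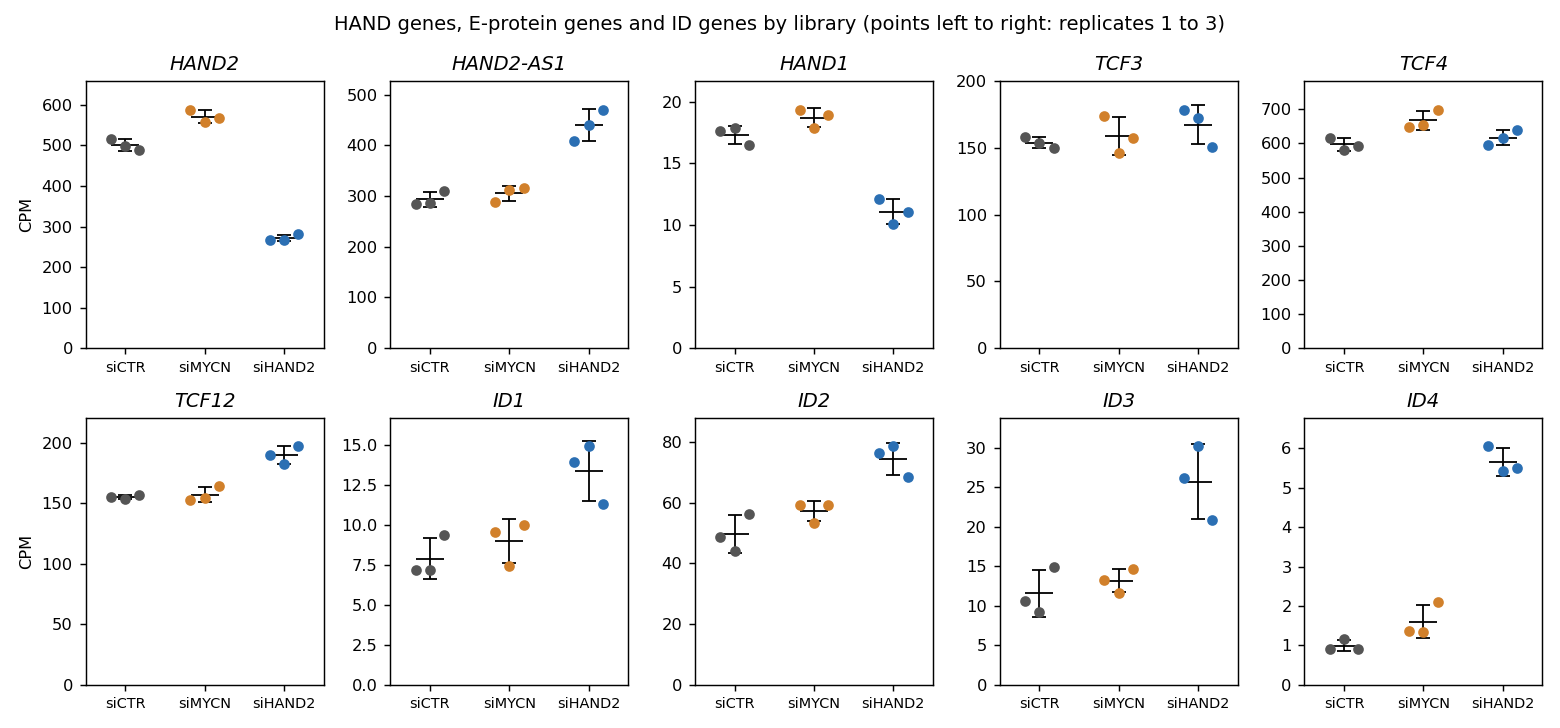
CPM of each of the 10 genes (y axis, from 0) in the 3 libraries of siCTR, siMYCN and siHAND2, with replicates 1 to 3 from left to right in a group and bars for mean ± SD. In siHAND2, HAND2 and HAND1 lie below the other groups, and HAND2-AS1, TCF12 and the 4 ID genes lie above them.

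The rest of the HAND2 neighbourhood was examined for genes reaching within 1 Mb of it. Of 21 other genes, 16 were tested, of which 4 were higher and 1 was lower in siHAND2. Over all genes, 18.1% were called higher and 11.8% lower in this contrast, and the median change of the 16 genes was 0.03. Besides HAND2-AS1, the largest rise was that of AC093849.2 (chromosome 4, 173509633 to 173511764, plus strand), a gene named only by its clone, which starts at -20.6 kb from the HAND2 start, on the side of the 3′ end of HAND2. It stood at 29.5, 30.8 and 33.8 CPM under siCTR, at 32.6, 34.3 and 32.3 CPM under siMYCN and at 51.7, 53.9 and 51.6 CPM under siHAND2. Its change was 0.72 in siHAND2 (limma, adjusted p = 6.71e-08) and 0.08 in siMYCN (limma, adjusted p = 0.322), so it moved in siHAND2 in the direction of HAND2-AS1.

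The gene that fell was AC106895.2 (chromosome 4, 173924207 to 173991024, minus strand), 461 kb from the HAND2 start, from 31.0 ± 0.88 to 20.7 ± 2.40 CPM (SD, n = 3), a change of -0.57 (limma, adjusted p = 1.96e-05). CEP44, a centrosomal protein gene, rose by 0.35 (limma, adjusted p = 0.000172), and HMGB2, a chromatin protein gene, by 0.15 (limma, adjusted p = 0.00849). In siMYCN 2 of the 16 were higher (HMGB2 and AC093849.1) and 3 were lower (SAP30, SAP30-DT and GALNTL6), against 24.5% higher and 11.4% lower over all genes. The HMGB2 call in siMYCN was lost after median-ratio rescaling (0.07), with no intensity trend, and without siCTR replicate 2 (0.12) or siMYCN replicate 1 (0.10). That of AC093849.1, near 1 CPM, was lost after both rescalings, with no filter on low values, with no intensity trend, and without siCTR replicate 1 (0.34) or 2 (0.42), siMYCN replicate 2 (0.42) or 3 (0.36), or siHAND2 replicate 2 (0.48).

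**Figure D2:**
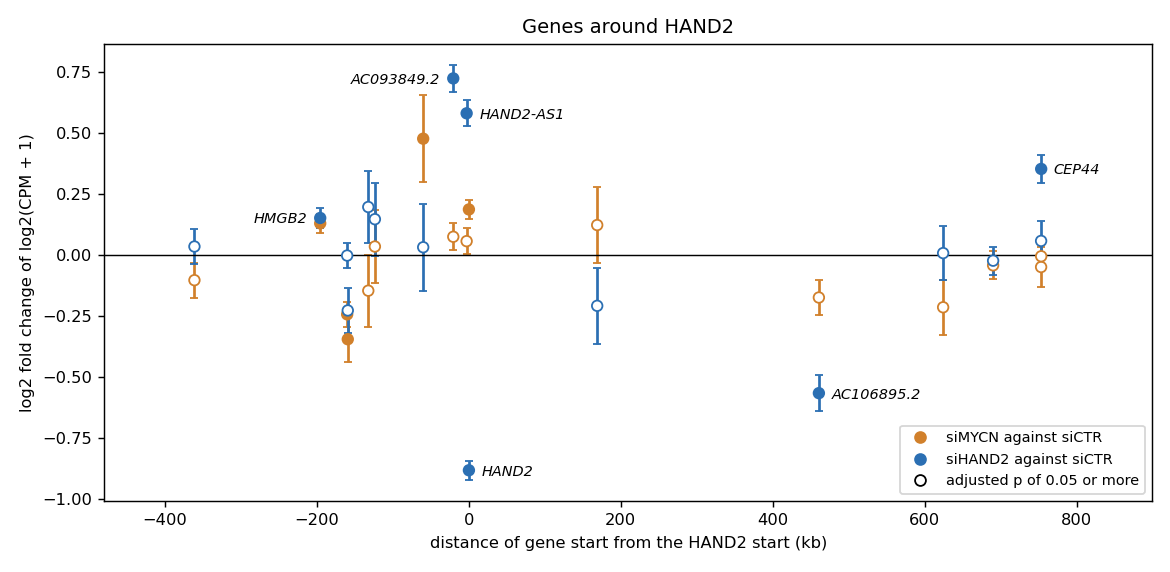
Log2 fold change of log2(CPM + 1) with its limma standard error (y axis) for tested genes around HAND2, against the distance of the gene start from the HAND2 start in kb (x axis). Filled points passed an adjusted p of 0.05. HAND2-AS1 and AC093849.2 lie above 0 beside HAND2 in siHAND2, HAND2 itself is at -0.88, and AC106895.2 is at -0.57. GALNTL6 starts outside the range drawn.

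Among the E-protein genes, TCF12 rose when HAND2 was targeted, whereas the tests of TCF3 and TCF4 in siHAND2 did not pass. TCF12 (chromosome 15, 56918623 to 57299281, plus strand) stood at 155, 153 and 157 CPM under siCTR, at 153, 155 and 164 CPM under siMYCN and at 189.6, 182 and 197 CPM under siHAND2. The 3 siHAND2 libraries were the 3 highest. The rise was 0.29 in siHAND2 (limma, SE 0.04, adjusted p = 9.19e-05), a mean 1.22 times that of siCTR, and the difference in siMYCN was 0.02 (limma, adjusted p = 0.782). Directly compared, siHAND2 was above siMYCN by 0.27 (limma, adjusted p = 0.000167).

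TCF4 (chromosome 18, 55222185 to 55664787, minus strand) stood at 617, 582 and 593 CPM under siCTR, at 649, 655 and 699 CPM under siMYCN and at 597, 616 and 639 CPM under siHAND2. The siMYCN libraries lay above all others, and siCTR and siHAND2 overlapped. TCF4 rose by 0.16 in siMYCN (limma, SE 0.04, adjusted p = 0.00917). This call was lost after median-ratio rescaling (0.10, limma, adjusted p = 0.0663) and without siMYCN replicate 3 (0.13, limma, adjusted p = 0.0557). In siHAND2 the difference was 0.05 (limma, SE 0.04, adjusted p = 0.448). TCF3 (chromosome 19, 1609290 to 1652615, minus strand) stood at 158, 154 and 150.1 CPM under siCTR, at 174, 146 and 158 CPM under siMYCN and at 179, 173 and 151 CPM under siHAND2. Its groups overlapped throughout, with differences of 0.04 in siMYCN and 0.12 in siHAND2 (limma, SE 0.06 each, adjusted p = 0.634 and 0.184). Without siHAND2 replicate 3 the latter was 0.19 (limma, adjusted p = 0.0191).

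The ID genes moved together in siHAND2: 4 of 4 rose, and for each of them every siHAND2 library lay above every siCTR and siMYCN library. By CPM means the rise was 1.5-fold for ID2, 1.69-fold for ID1, 2.22-fold for ID3 and 5.69-fold for ID4. The share of all tested genes called higher in this contrast was 18.1%, and groups did not overlap in either direction for 42.4%. The median log2 fold change of the ID genes was 0.90, beside 0.04 over all genes. The 4 rises and their calls held after median-ratio rescaling and quantile normalization, and without each of the 9 libraries.

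ID4 (chromosome 6, 19837370 to 19842197, plus strand) had the largest change of the 10 genes. It stood at 0.917, 1.16 and 0.902 CPM under siCTR, at 1.37, 1.34 and 2.09 CPM under siMYCN and at 6.05, 5.42 and 5.49 CPM under siHAND2. In reads, as implied by the step, these were 30, 31 and 19 (siCTR), 34, 35 and 61 (siMYCN) and 184, 136 and 155 (siHAND2). The 3 groups did not overlap, and in control cells ID4 was near 1 CPM, the level that the filter for testing asked for. The change in siHAND2 was 1.74 on the log2(CPM + 1) scale (limma, SE 0.12, adjusted p = 2.36e-08), at rank 30 from the highest. Since 1 CPM is added to every value, this understates the change of so low a gene. It was 2.40 with a pseudocount of 0.1 and 0.83 with a pseudocount of 5, each past the threshold.

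ID3 (chromosome 1, 23557926 to 23559501, minus strand) stood at 10.6, 9.21 and 14.9 CPM under siCTR, at 13.3, 11.6 and 14.6 CPM under siMYCN and at 26.1, 30.1 and 20.8 CPM under siHAND2. The lowest siHAND2 library still exceeded the highest siCTR library. ID3 rose by 1.10 (limma, SE 0.14, adjusted p = 2.09e-05), at rank 80 from the highest. ID1 (chromosome 20, 31605283 to 31606515, plus strand) stood at 7.15, 7.15 and 9.35 CPM under siCTR, at 9.54, 7.44 and 9.97 CPM under siMYCN and at 13.9, 14.9 and 11.3 CPM under siHAND2. Its rise was 0.69 (limma, SE 0.12, adjusted p = 0.000364). ID2 (chromosome 2, 8678845 to 8684461, plus strand), the most abundant ID gene, stood at 48.8, 44.02 and 56.5 CPM under siCTR, at 59.2, 53.3 and 59.2 CPM under siMYCN and at 76.3, 78.6 and 68.4 CPM under siHAND2, a rise of 0.58 (limma, SE 0.08, adjusted p = 2.70e-05).

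The ID genes differed less between siMYCN and siCTR. ID4 was higher by 0.37 (limma, adjusted p = 0.0266) and ID2 by 0.20 (limma, adjusted p = 0.0469), while ID1 differed by 0.17 and ID3 by 0.19 (limma, adjusted p = 0.297 and 0.314). The ID2 libraries of siMYCN and siCTR overlapped, and its call was lost after both rescalings (0.15 each), with no filter on low values, with no intensity trend, and without siCTR replicate 1 (0.19), siCTR replicate 2 (0.12), siMYCN replicate 1 (0.18), siMYCN replicate 3 (0.18) or siHAND2 replicate 2 (0.20). The ID4 call was lost after quantile normalization (0.31), with no filter, with a pseudocount of 5 (0.14), and without replicate 1 (0.35) or 3 (0.34) of siCTR or replicate 3 of siMYCN (0.24). ID3 passed without siCTR replicate 3 (0.38, limma, adjusted p = 0.0297). Set against each other, the knockdowns differed past the threshold for 4 of 4 ID genes. MYCN was also lower in siHAND2 (49.6% of siCTR) than in siMYCN (70.0%). Parts of HAND2 and of MYCN in the ID differences therefore cannot be told apart here. Of all genes, 26.9% were called in this contrast, 11.4% as higher in siHAND2. The siHAND2 libraries were higher by 1.37 for ID4 (limma, adjusted p = 3.08e-07), 0.90 for ID3 (limma, adjusted p = 0.000144), 0.52 for ID1 (limma, adjusted p = 0.00366) and 0.37 for ID2 (limma, adjusted p = 0.00156).

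Within groups, ID1, ID2 and ID3 also varied together between libraries. For all 3 genes the order from low to high was replicate 2, 1, 3 in siCTR, replicate 2, 1, 3 in siMYCN and replicate 3, 1, 2 in siHAND2, although siCTR replicates 1 and 2 of ID1 and siMYCN replicates 1 and 3 of ID2 were nearly equal. Deviations from the group means of log2(CPM + 1) over the 9 libraries had a Pearson r of 0.91 between ID1 and ID2, 0.93 between ID1 and ID3 and 0.97 between ID2 and ID3. ID4 did not share this order, with r of 0.23, -0.06 and 0.03 against ID1, ID2 and ID3. These values describe 9 libraries, in which the 3 genes of a library share its depth, and carry no test.

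**Figure D3:**
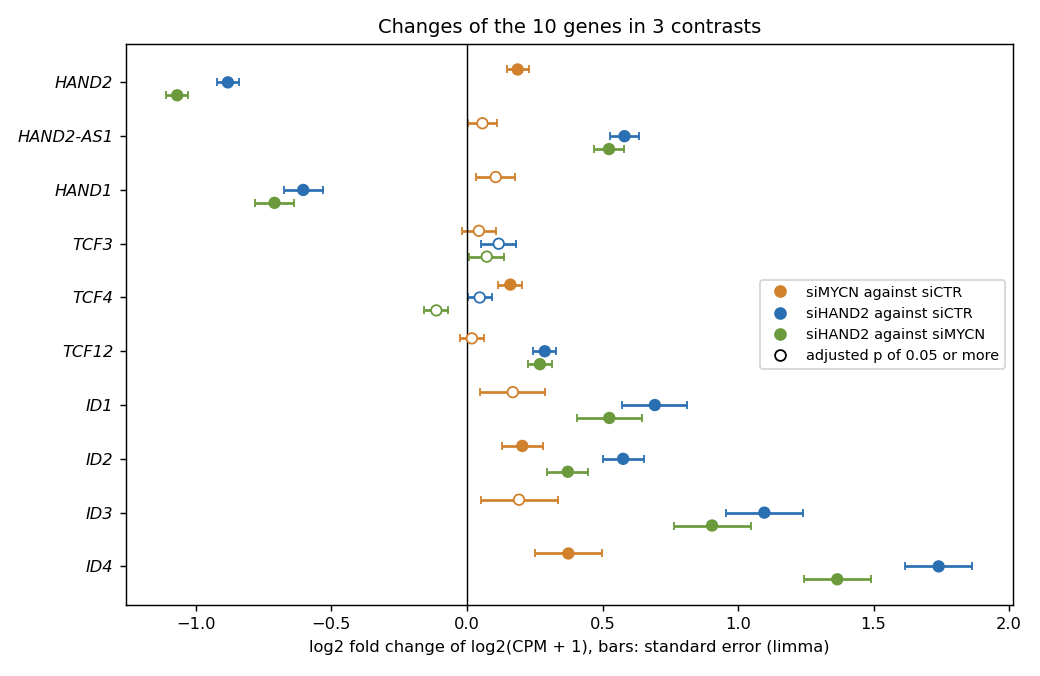
Log2 fold change of log2(CPM + 1) (x axis) with its limma standard error for the 10 genes in the 2 contrasts with control cells and the contrast of the knockdowns. Filled points passed an adjusted p of 0.05. The 4 ID genes, TCF12 and HAND2-AS1 are right of 0 in both siHAND2 contrasts, and HAND2 and HAND1 are left of it.

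Counted over the network, 8 of 10 genes passed the threshold in siHAND2, 6 higher and 2 lower, of which HAND2 was the siRNA target. Of all 14495 genes tested, 29.9% passed in that contrast. The share of called genes that were higher was 60.6% with CPM as deposited and 47.1% after median-ratio rescaling, but the 8 calls were the same 8 genes in direction and call after both rescalings. In siMYCN, 4 of 10 passed, all higher, and after either rescaling 2 of 10. With 35.9% of all genes called in siMYCN, this share is near the background and is no result about these genes. The share of called genes that were higher in siMYCN was 68.3% as deposited and 51.2% after median-ratio rescaling. Between siHAND2 and siMYCN, 8 of 10 passed, 6 higher and 2 lower in siHAND2, where 26.9% of all genes did. Libraries did not overlap for 8 of 10 genes in siHAND2 (42.4% of all genes). In siMYCN they did not overlap for 4 (49.5% of all genes), and between the knockdowns for 9 (38.7% of all genes). A called change of at least 2-fold was seen in siHAND2 for 2 genes, ID3 and ID4 (0.987% of all genes), in siMYCN for none (0.331% of all genes), and between the knockdowns for 2, HAND2 and ID4 (1.36% of all genes). The contrasts share control or knockdown libraries and are not independent of each other.

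Levels of different genes were compared per kb of annotated exon, from the union of all exons of a gene. In siCTR, HAND2 stood highest at 139 ± 3.81 CPM per kb. TCF3 (24.2 ± 0.626), ID2 (22.5 ± 2.84) and TCF4 (20.5 ± 0.617) followed, and the range of ID2 over libraries overlapped both neighbours. Then came TCF12 (16.4 ± 0.190), HAND2-AS1 (13.8 ± 0.699), HAND1 (10.2 ± 0.420), ID3 (7.74 ± 2.00) and ID1 (6.39 ± 1.03), with ID4 last at 0.256 ± 0.0375 CPM per kb (SD, n = 3 each). The range of ID3 overlapped those of HAND1 and ID1. The order depends on the length used: TCF4 has 29166 bases of exon over all isoforms but 8343 in its longest transcript, on which it measured 71.6 CPM per kb, above TCF3 (32.5), TCF12 (25.4) and ID2 (24.4). HAND2-AS1 has 21289 bases of exon but 5303 in its longest transcript, on which it measured 55.3 CPM per kb, below HAND2 and TCF4 and above TCF3.

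The summed ID level was set against the summed E-protein level, since ID and HAND proteins compete for the same partners. Per kb of exon, the E-protein sum was 61.1 ± 1.14 (siCTR), 64.5 ± 2.43 (siMYCN) and 67.6 ± 1.05 CPM (siHAND2). The ID sum was 36.9 ± 5.78, 42.4 ± 3.64 and 63.1 ± 7.06 CPM per kb (SD, n = 3 each). As a percent of the E-protein sum, the ID sum stood at 56.3, 53.3 and 71.6 under siCTR, at 66.5, 62.0 and 68.3 under siMYCN and at 94.4, 102 and 83.2 under siHAND2. The siHAND2 libraries were the 3 highest, and siCTR and siMYCN overlapped. With the longest transcript as length the means were 33.4%, 35.6% and 54.0%, again highest in siHAND2, and with CPM as they are 7.75%, 8.23% and 12.2%. These sums describe transcripts, not proteins, and were not tested because the ID genes were chosen with their changes known.

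**Figure D4:**
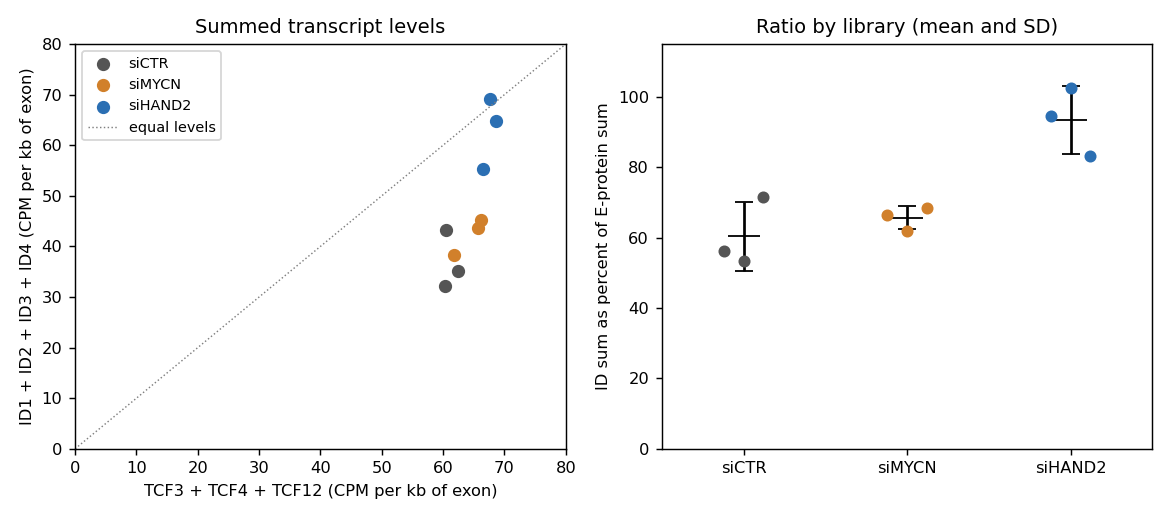
Left, summed ID level against summed E-protein level in CPM per kb of exon for each of the 9 libraries, with a dotted line at equal levels. Right, the ID sum as a percent of the E-protein sum by library, with mean ± SD: 60.4 ± 9.81 in siCTR, 65.6 ± 3.26 in siMYCN and 93.4 ± 9.61 in siHAND2.

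A list of 34 BMP and SMAD pathway genes was described, of which 29 were in the table and 22 tested. Whether these genes had a part in the changes of the ID genes was not tested. In siHAND2, 6 were higher and 3 lower (27.3% and 13.6% of the 22, where 18.1% and 11.8% of all genes were), with a median change of 0.07 beside 0.04 over all genes. BMPR2, the type II BMP receptor, rose from 51.4 ± 1.79 to 83.0 ± 3.95 CPM (0.68, limma, adjusted p = 5.88e-08). SMAD7, an inhibitory SMAD induced by the pathway, rose from 13.4 ± 0.615 to 19.5 ± 1.55 CPM (0.51, limma, adjusted p = 4.56e-05). BAMBI, a decoy receptor also induced by it, rose from 67.8 ± 4.42 to 89.5 ± 5.58 CPM (0.39, limma, adjusted p = 4.01e-05). BMPR2, SMAD7 and BAMBI also rose in siMYCN, by 0.26, 0.30 and 0.49 (limma, adjusted p = 0.00103, 0.00316 and 4.05e-06). SMAD6, the other inhibitory SMAD, differed by 0.07 in siHAND2 and -0.17 in siMYCN (limma, adjusted p = 0.603 and 0.133). The secreted BMP antagonist GREM1 fell from 63.9 ± 2.26 to 52.7 ± 1.17 CPM (-0.27, limma, adjusted p = 0.000714; SD, n = 3 for all).

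GREM1 and BMPER went the other way in siMYCN, where 7 of the 22 pathway genes were higher and none lower (24.5% and 11.4% of all genes). The count called in siMYCN ran from 6 to 11 over the fits that left out 1 library, with 11 without siHAND2 replicate 3. It also ran from 6 to 11 under the other alternatives. The siMYCN call of SMURF2 was lost after both rescalings (0.06 each), with no intensity trend and without several single libraries. GREM1 rose by 0.42 (limma, adjusted p = 1.03e-05) and BMPER, a secreted BMP-binding protein, by 1.27 (limma, adjusted p = 1.84e-07). BMPER averaged 2.61 ± 0.291 CPM (siCTR), 7.70 ± 0.508 CPM (siMYCN) and 1.64 ± 0.180 CPM (siHAND2). Between siHAND2 and siMYCN, GREM1 differed by -0.69 and BMPER by -1.72 (limma, adjusted p = 2.37e-08 and 1.75e-09). The ligands BMP4 and BMP6 stayed below 1 CPM in every library. BMP7, the 1 ligand tested, differed from siCTR by 0.15 in siMYCN and 0.07 in siHAND2 (limma, adjusted p = 0.487 and 0.756).

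Other bHLH factors that dimerise with E-proteins were sparse. Of 38 listed, 15 were in the table and 6 had enough signal to test. ATOH8 rose from 7.59 ± 1.71 to 15.3 ± 1.77 CPM in siHAND2 (0.94, limma, adjusted p = 9.61e-05) and to 11.5 ± 2.30 CPM in siMYCN (0.54, limma, adjusted p = 0.00659). LYL1 rose by 0.45 and NEUROD1 fell by 0.54 in siMYCN (limma, adjusted p = 0.00116 and 0.000271).

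Of 14 tested cofactors and stability factors of helix-loop-helix proteins, 5 were higher and none lower in siHAND2 (18.1% and 11.8% of all genes). In siMYCN 9 were higher and 2 lower (24.5% and 11.4% of all genes). The siMYCN calls of EP300, USP1 and PPP2R5D were lost after both rescalings, with no intensity trend and without several single libraries. The count called in siMYCN went from 11 to as low as 8 under the alternatives. RUNX1T1, a corepressor of the ETO family that binds E-proteins, rose from 17.2 ± 0.360 to 27.8 ± 0.960 CPM in siHAND2 (0.66, limma, adjusted p = 3.13e-07) and by 0.32 in siMYCN (limma, adjusted p = 0.000470). CBFA2T2, of the same family, rose from 58.2 ± 3.62 to 81.6 ± 4.86 CPM in siMYCN (0.48, limma, adjusted p = 6.42e-06). The coactivator gene CREBBP rose by 0.32 in siHAND2 and 0.27 in siMYCN (limma, adjusted p = 0.000158 and 0.000550). PPP2CA, the catalytic subunit of phosphatase 2A, rose by 0.15 and 0.18 (limma, adjusted p = 0.00714 and 0.00157). EP300 rose by 0.24 in siHAND2 (limma, adjusted p = 0.00932), a call lost without siCTR replicate 2 (0.20) or siHAND2 replicate 2 (0.21).

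Markers of other cell states moved beside the ID genes. The 10 mesenchymal or fibroblast markers summed to 879 to 927 CPM in siCTR, 1156 to 1194 in siMYCN and 1762 to 1939 in siHAND2. Of the 9 tested, 8 rose and 1 fell in siHAND2 (18.1% and 11.8% of all genes), with a median of 1.00. In siMYCN 8 rose and none fell (24.5% and 11.4% of all genes), with a median of 0.45, and COL1A1 stayed below 1 CPM in every library. DCN, a proteoglycan gene, went from 0.431 ± 0.0794 to 11.0 ± 0.781 CPM and PDGFRA, a growth factor receptor gene, from 121 ± 4.49 to 341 ± 27.7 CPM (SD, n = 3). Of 10 sympathetic and neuroblastoma markers, 3 rose and 4 fell in siHAND2, whereas 9 rose and none fell in siMYCN. DBH, the enzyme that makes noradrenaline, fell from 263 ± 18.2 to 130.1 ± 5.65 CPM (-1.01, limma, adjusted p = 6.84e-10), and STMN2, a neuronal microtubule gene, rose by 0.95 (limma, adjusted p = 1.81e-09). In siMYCN DBH rose by 0.38 and STMN2 by 0.71 (limma, adjusted p = 4.46e-05 and 1.24e-07). The Schwann list rested on PMP22, its 1 tested gene, which fell from 99.8 ± 3.54 to 33.1 ± 1.00 CPM in siHAND2 and rose to 150.3 ± 2.91 CPM in siMYCN. The part of these cell states in the changes of the ID genes was not tested.

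Genes with the pattern most like a given gene were found from the root mean square difference of centred log2(CPM + 1) over the 9 libraries. Nearest to HAND2 were ACTN1 (0.064), RIMS3 (0.069) and MCC (0.071). Nearest to HAND2-AS1 were ZC3H8 (0.028), STARD4-AS1 (0.045) and HMBOX1 (0.051). Nearest to TCF4 were MIB1 (0.015), FEM1B (0.016) and LPIN1 (0.020). ACTN1, for example, differed from siCTR by 0.27 in siMYCN and -0.79 in siHAND2, beside 0.19 and -0.88 for HAND2.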

How the data were processed

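Total RNA of 9 LAN5 libraries was sequenced, 3 per siRNA group. The authors deposited CPM values in 1 table, with a constant of 0.0001 in every value. STAR 2.5.1, Partek and the builds hg19 and GRCh37 are named per the submitters' processing notes. The gene coordinates of the table nevertheless match GRCh38 (91.4% of 18215 symbols start within 5000 bases of a GRCh38 gene table, against 5.62% for GRCh37), and gene positions are printed as GRCh38. Counting tool, strand use and filters are not given in the sources used here.

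Only 79.8% to 81.4% of low values (up to 20 steps) were whole multiples of the smallest step within 0.02 steps, so no count test was run. The filter asked for 1 CPM or more in 3 or more of the 9 libraries (14495 genes kept, 10589 left out) and all 10 network genes passed. One mean per group was fitted to log2(CPM + 1) by limma 3.58.1 (R 4.3.3, all groups together, intensity trend, two-sided, Benjamini-Hochberg over all genes tested, threshold 0.05) and tested on simulated data. The groups need a shared spread with 3 libraries each. Exon lengths came from a GRCh37 annotation by symbol. The network genes and lists were chosen with earlier results of these data known. Named genes are the 10 network genes, MYCN, up to 4 called genes per list and contrast against siCTR, genes within 1 Mb of HAND2, and the 3 nearest patterns of HAND2, HAND2-AS1 and TCF4 (the other network gene with the smallest p in siMYCN). A few other list members are named to say where they lie. Values of some list genes that this rule names are not reported here. Lists were described by counts and medians without set tests.

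Alternatives were pseudocounts of 0.1 and 5, no filter and a filter of 5 CPM, median-ratio and quantile scaling, fits of 2 groups alone, no intensity trend, a replicate block, and each library left out.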

Additional observations from a re-analysis of the deposited data

How the results depend on the processing

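Of the 30 fold changes of the network genes (10 genes in 3 contrasts), each recomputed under 9 alternatives, 255 of 270 values kept direction and side of the threshold, 8 lost a call, 2 gained one and 5 changed sign. With each of the 9 libraries left out, 256 of 270 did so, 9 lost a call, 3 gained one and 2 changed sign. All lost calls and sign changes were in siMYCN against siCTR. After median-ratio rescaling HAND2-AS1 was at -0.001, TCF3 at -0.014 and TCF12 at -0.039; after quantile normalization TCF3 was at -0.018 and TCF12 at -0.039; TCF3 was at -0.022 without siMYCN replicate 1 and TCF12 at -0.013 without siMYCN replicate 3. Over the left-out libraries TCF3 ranged from -0.022 to 0.104 and TCF12 from -0.013 to 0.038. None of these siMYCN changes was called in any fit. The count of network genes called in siMYCN fell from 4 to 2 under median-ratio rescaling, under quantile normalization and with no filter. It ran from 1 (without siMYCN replicate 3) to 4 over the fits that left out 1 library, and was 2 without siCTR replicate 1. The counts in siHAND2 against siCTR (8 to 9) and against siMYCN (8 to 9) kept within that range throughout. Over all genes, leaving out 1 library moved the calls to 4013 to 5854 in siMYCN, 3075 to 4290 in siHAND2 and 2909 to 3940 between the knockdowns. Whether replicate numbers pair the samples is not said in the labels and was not settled by the values. Deviations of libraries with the same number had a correlation of -0.04 to 0.305 across genes. For libraries with different numbers it was -0.296 to 0.141, and not every library correlated best with its own number. With replicate number as a block, 5895, 5089 and 4689 genes were called in the 3 contrasts, beside 5209, 4339 and 3892 without it. Among the network genes only the TCF4 difference between siHAND2 and siMYCN (-0.11) changed side, to an adjusted p of 0.0353 (limma, 0.0677 without the block). Counting error limits ID4 in siCTR, where 19 to 31 reads stood behind each value.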
